A study of Mus musculus with 3 samples.

Results

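The DNA replication and S phase genes were a set of 38 genes whose products copy the genome, taken by gene symbol from the 32285 genes listed for each library. They fell into 5 role groups: 12 genes of origin licensing and the replicative helicase, 10 of DNA polymerases and fork factors, 5 of nucleotide supply and uracil removal, 8 of chromatin assembly, DNA methylation and other factors on new DNA, and 3 regulators of S phase entry. All 38 were found in the 3 libraries of mouse bone marrow cells, which were profiled by droplet single-cell RNA sequencing of transcript ends with molecule counting (UMIs). Fusion replicates 1 and 2 carried the genotype Ep300-Znf384-V5-HA, a fusion of the histone acetyltransferase gene Ep300 and the zinc-finger gene Znf384 with V5 and HA tags. The other library was wild type. All 3 came from males aged 6 weeks with no treatment named, and each library was built from a pool of 5000 live cells of whole marrow and 5000 depleted of lineage-positive cells, so shares of cell types reflect that mix. The labels name neither a Cre driver nor the cell types in which the allele was active.

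In a dividing cell, the origin recognition complex, Cdc6 and Cdt1 load the ring of Mcm2 to Mcm7 onto DNA, and Cdc45 and the GINS complex turn it into a moving helicase. Cyclin E with its kinase releases E2F factors from the retinoblastoma protein, and E2F factors then switch on most genes of this set, so their transcripts are high from late G1 through S phase. In bone marrow, fast-dividing erythroid, granulocyte and early B cell precursors carry these transcripts, while mature neutrophils have left the cell cycle.

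The E2F sites in the start regions of these genes were looked up because they are the shared feature by which the set is known. RefSeq windows of 300 bases (GRCm38.p6, 250 bases before a transcription start to 50 after it) were available for 30 of the 38 genes, in 37 windows. Atad2, Ccne2, Gins1, Gins2, Mcm4, Rfc2, Tipin and Usp1 had no matching window. The sites searched were TTTCCCGC, TTTCGCGC, TTTGCCGC and TTTGGCGC on both strands, where overlapping matches were counted. At least 1 match lay in 13 of the 37 windows (35.1%), against 744 of 32851 windows of all genes (2.26%). A second match lay in 13.5% of member windows and in 0.097% of all windows. CCAAT, the site of the factor NF-Y, lay on either strand in 56.8% of member windows and 37.4% of all windows. A match is a description of letters and shows neither binding nor use of a site. The windows of Mcm6 (chr1:128359656-128359955, minus strand), Mcm5 (chr8:75109259-75109558, plus strand) and Mcm3 (chr1:20820263-20820562, minus strand) are shown because each held several E2F matches. Capitals mark the E2F matches, read on the strand of the gene, and in Mcm6 and Mcm5 the first run of capitals holds 2 overlapping matches.
Mcm6: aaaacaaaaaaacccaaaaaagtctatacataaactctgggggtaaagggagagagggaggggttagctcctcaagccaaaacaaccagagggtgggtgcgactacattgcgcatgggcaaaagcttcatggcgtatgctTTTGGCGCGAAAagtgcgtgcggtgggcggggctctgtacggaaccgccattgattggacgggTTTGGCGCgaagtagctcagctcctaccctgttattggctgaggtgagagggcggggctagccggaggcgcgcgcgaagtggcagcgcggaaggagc
Mcm5: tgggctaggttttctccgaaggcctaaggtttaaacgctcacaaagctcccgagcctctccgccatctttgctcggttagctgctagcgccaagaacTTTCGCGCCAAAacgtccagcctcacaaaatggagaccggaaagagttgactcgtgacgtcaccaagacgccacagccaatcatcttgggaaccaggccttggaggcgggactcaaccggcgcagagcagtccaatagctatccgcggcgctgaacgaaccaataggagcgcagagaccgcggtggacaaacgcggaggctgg
Mcm3: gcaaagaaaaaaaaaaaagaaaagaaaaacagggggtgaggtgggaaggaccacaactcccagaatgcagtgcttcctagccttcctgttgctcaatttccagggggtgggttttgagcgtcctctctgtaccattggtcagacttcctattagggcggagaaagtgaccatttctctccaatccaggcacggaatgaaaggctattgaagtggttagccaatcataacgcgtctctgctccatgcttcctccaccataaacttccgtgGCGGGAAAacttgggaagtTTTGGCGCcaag

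The libraries held 9057 and 8122 barcodes in fusion replicates 1 and 2 and 9354 in wild type, with 97192347 and 111836603 UMIs against 93262028. After filtering, 7313 and 6895 fusion cells and 7431 wild-type cells remained, with medians of 7360 and 10008 UMIs per cell against 7430. The libraries shared 9 barcodes between the fusion replicates, 13 between fusion replicate 1 and wild type and 17 between fusion replicate 2 and wild type. Ep300 stood at 69.2 and 52.95 CPM (UMIs scaled to a common library size) in fusion cells and 85.8 CPM in wild type, and Zfp384, the mouse gene for ZNF384, at 26.5 and 19.5 CPM against 15.6 CPM. These levels do not check the labels, since tags of the fusion and normal transcripts could not be told apart. Cells were clustered without the 38 genes and without 8 lists of other cell cycle genes, and the 27 clusters were joined by marker genes into 16 classes. Wild type was a single library, so genotype and library cannot be told apart. The p-values rest on the spread between the 2 fusion libraries, which may be technical, and no spread within wild type was measured.

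The 38 genes were most abundant in erythroblasts and near background in neutrophils past their last divisions. Their summed level was 10039 and 9306 CPM in fusion erythroblasts and 9952 CPM in wild-type erythroblasts. Pro-B cells followed at 5168 and 5927 CPM in fusion against 6413 CPM in wild type, and erythroid progenitors at 5611 and 4935 CPM against 4975 CPM. Granulocyte-monocyte progenitors held 4956 and 4470 CPM in fusion and 4494 CPM in wild type, and the Irf8 Runx2 progenitors, a cluster named only by its leading genes, 5019 and 4807 CPM against 5175 CPM. The lowest levels were in mature neutrophils, at 791 and 555 CPM in fusion and 582 CPM in wild type, and in the other immature neutrophils, clusters that were filled mostly by 1 genotype, at 480.3 and 353 CPM against 408 CPM. Erythroblasts thus stood above all other classes in all 3 libraries, while from pro-B cells down to megakaryocytes (4902 and 4370 CPM in fusion, 3929 CPM in wild type) the fusion values of neighbouring classes overlapped.

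**Figure D1:**
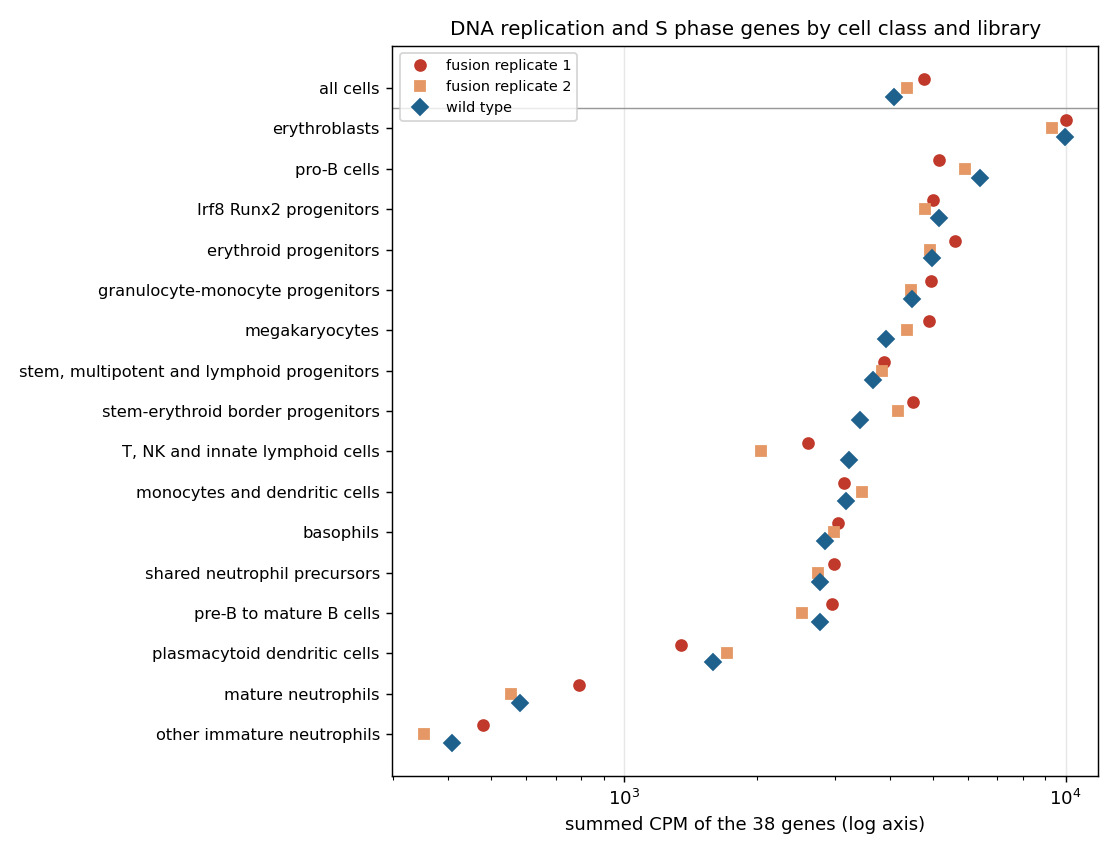
Summed CPM of the 38 genes (horizontal log axis) in all cells and in each of 16 cell classes, with 1 point per library for fusion replicate 1, fusion replicate 2 and wild type. Erythroblasts lie near 10039, 9306 and 9952 CPM, and the largest gap with both fusion points above wild type is that of the stem-erythroid border progenitors, at 4515 and 4172 against 3414 CPM.

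Most genes of the set followed that shared profile. Over 48 points of class and library, which share library, depth and cell types, 30 of the 38 genes correlated with the sum of the others above 0.9 (Pearson r of log2(CPM + 1)). The fork protein gene Tipin came closest at r = 0.99, and Mcm5, Pcna, Mcm7 and Mcm3 stood at 0.98. The lowest were Ccne1, which encodes cyclin E1, at 0.69 and E2f1 at 0.72. By mean CPM over the 3 libraries, 33 genes were highest in erythroblasts. Pro-B cells held the highest level of Uhrf1, which guides maintenance DNA methylation (282 CPM), of the chromatin remodeller gene Hells (172 CPM) and of the deubiquitinase gene Usp1 (227 CPM). Rfc2, a subunit of the clamp loader, was highest in basophils (251 CPM), and Ung, which removes uracil from DNA, in granulocyte-monocyte progenitors (55.1 CPM). Rrm2, the small subunit of ribonucleotide reductase, had the highest ratio of its top class to mature neutrophils, at 476 CPM in erythroblasts and 7.94 CPM in mature neutrophils. The genes outside the set with the most similar profiles were Dtymk (r = 0.98), Rfc4 (0.98), Nasp (0.97), Orc6 (0.97), Anp32b (0.97), Gmnn (0.97), Cenpk (0.97), Snrnp40 (0.97), Smc1a (0.97) and Rad54l (0.96).

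Over all cells, the level of the set was slightly higher in fusion marrow, and no member was called. The sum was 4773 and 4377 CPM in fusion and 4090 CPM in wild type, a log2 ratio of 0.16 (SD between fusion replicates 0.09, n = 2). Both fusion libraries lay above wild type. Nucleotide supply genes stood at 1047 and 897 CPM against 796 CPM, polymerase and fork genes at 1311 and 1169 CPM against 1094 CPM, and licensing and helicase genes at 1313 and 1268 CPM against 1170 CPM. Of the 38 genes, 33 had a positive log2 fold change, with a median of 0.17 beside 0.00 over all 15471 genes tested. In edgeR's quasi-likelihood test with Benjamini-Hochberg adjustment, 0 of 38 passed an adjusted p of 0.05, where 15.8% of all genes did. At an unadjusted p under 0.05 there were 3 members, 2 higher and 1 lower, where 27.8% of all genes passed. DESeq2 also called 0 members.

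The 3 members with the largest change over all cells were Hells, Dut and Tyms. Hells stood at 69.2 and 86.1 CPM in fusion and 103 CPM in wild type, a log2 fold change of −0.41 ± 0.16 (SE, edgeR adjusted p = 0.0928). Dut, which keeps uracil out of DNA, stood at 572 and 482 CPM against 397 CPM (0.41 ± 0.23, adjusted p = 0.274). Tyms, which makes thymidylate, stood at 143 and 126 CPM against 103 CPM (0.38 ± 0.17, adjusted p = 0.155). Both fusion libraries lay below wild type for Hells and above it for Dut and Tyms, and none of the 3 was called. These CPM values of tested genes are scaled by TMM normalization, while summed levels are plain CPM.

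The mix of cells differed as well. Erythroid progenitors were 21.9% and 21.4% of the cells in fusion and 9.29% in wild type, and carried 58.7% and 50.2% of the UMIs of the set in fusion against 27.8% in wild type. With every class held at its wild-type share of UMIs, the sum was 4396 and 4051 CPM in fusion and 4090 CPM in wild type, a log2 ratio of 0.05. The fusion replicates then lay on both sides of wild type: the ratio was −0.01 without fusion replicate 1 and 0.10 without fusion replicate 2. With wild-type levels in each class placed at the class shares of each fusion library, the sum was 4290 and 4377 CPM against 4090 CPM, a log2 ratio of 0.08. Within all cells, fewer cells of a type and less RNA per cell cannot be told apart.

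Within classes, few members were called. Counts were summed per class and library, and 15 classes with at least 50 cells in each library were tested with edgeR's quasi-likelihood test, adjusted over all genes of a class. Of 562 pairs of class and member, 4 were called (0.712%), beside 3090 of 146136 pairs over all genes (2.11%). The 4 pairs were 1 higher and 3 lower, and concerned E2f1, Cdc45 and Rrm2. The other 35 members were called in no class. The 15 classes include the other immature neutrophils. There 1 cluster had more mature than immature markers among its leading genes, and fusion and wild-type cells filled different clusters, so genotypes are not compared within that class below. Without it, 4 of 526 member pairs (0.76%) and 2637 of 136772 pairs over all genes (1.93%) were called. All 38 members could be tested in 12 of the 15 classes. The low-count filter removed Ccne2, Gins1, Mcm10 and Ung in T, NK and innate lymphoid cells, and Ccne2 and Gins1 in other immature neutrophils and in pre-B to mature B cells.

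The stem-erythroid border progenitors were the class with the clearest upward shift of the set. This cluster scored alike for stem and erythroid progenitor markers, and its leading genes included Ctla2a, Apoe, F2r and Meis1. Its 567 and 592 fusion cells and 313 wild-type cells held a summed level of 4515 and 4172 CPM in fusion and 3414 CPM in wild type, a log2 ratio of 0.35 (SD between fusion replicates 0.08, n = 2). Both fusion libraries stood above wild type for 33 of the 38 members and below it for 1, where 37.3% and 36.5% of all genes did. The median log2 fold change of the members was 0.32, beside 0.00 over all 11253 genes tested. At an unadjusted p under 0.05 there were 13 members, all higher, where 8.70% of all genes passed. Both fusion libraries differed from wild type in the same direction in each of the 5 role groups. The log2 ratio of the summed levels was 0.33 for licensing and helicase genes, 0.33 for polymerase and fork genes, 0.44 for nucleotide supply, 0.31 for chromatin and DNA methylation genes and 0.65 for the regulators of S phase entry.

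E2f1, which encodes the E2F factor that turns on replication genes, rose in the border progenitors. It held 240 and 254 UMIs in fusion and 70 in wild type, or 37.98 and 37.3 CPM in fusion against 21.9 CPM in wild type. The fusion replicates were close to each other and well above wild type. The log2 fold change was 0.78 ± 0.20 (SE, edgeR adjusted p = 0.0474), and E2f1 was the 1 member called of 38 there (of all genes 0.942% were called, and 0.213% were called higher). The call was close to the threshold: the adjusted p was 0.0507 with DESeq2 size factors in edgeR, 0.0727 with coarser clusters, 0.873 with cells thinned to 2000 UMIs and 1.0 with DESeq2, against 0.0157 with no count filter. In neighbouring classes E2f1 stood at 29.1 and 29.95 CPM in fusion stem, multipotent and lymphoid progenitors against 28.5 CPM in wild type, and at 26.7 and 26.3 CPM in fusion erythroid progenitors against 24.9 CPM. Neither of those was called (log2 fold changes 0.05 ± 0.20 and 0.09 ± 0.12). E2f1 lies on chromosome 2, 154559407 to 154569892 (GRCm38, ENSMUSG00000027490).

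Other members of the border progenitors were higher without being called. Dut stood at 399 and 361 CPM in fusion and 260.1 CPM in wild-type cells (0.55 ± 0.19 on the log2 scale, edgeR adjusted p = 0.268). Uhrf1 stood at 102.2 and 99.5 CPM against 71.98 CPM (0.49 ± 0.17, adjusted p = 0.265). Gins1, a subunit of the GINS complex, stood at 27.1 and 26.6 CPM against 18.2 CPM (0.56 ± 0.22, adjusted p = 0.351). The single-strand binding protein gene Rpa2, the ligase gene Lig1, the primase gene Prim1, the fork genes Tipin and Clspn, Rfc2, Mcm2, Cdt1 and Rrm1 were the rest of the 13 at an unadjusted p under 0.05. Cdc6, the loader of the helicase ring, went the other way with a log2 fold change of −0.24. In the same cells the summed stem cell markers stood at 2432 and 1996 CPM in fusion against 2782 CPM in wild type and the erythroid progenitor markers at 4852 and 4443 CPM against 5051 CPM. Of 15 stem markers 10 were lower in both fusion libraries, and of 14 erythroid markers 9. The monocyte and dendritic cell markers, foreign to this class, stood at 25.8 and 19.9 CPM against 67.8 CPM, with 12 of 17 lower in both fusion libraries. Their part in the shift of the set was not tested.

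**Figure D2:**
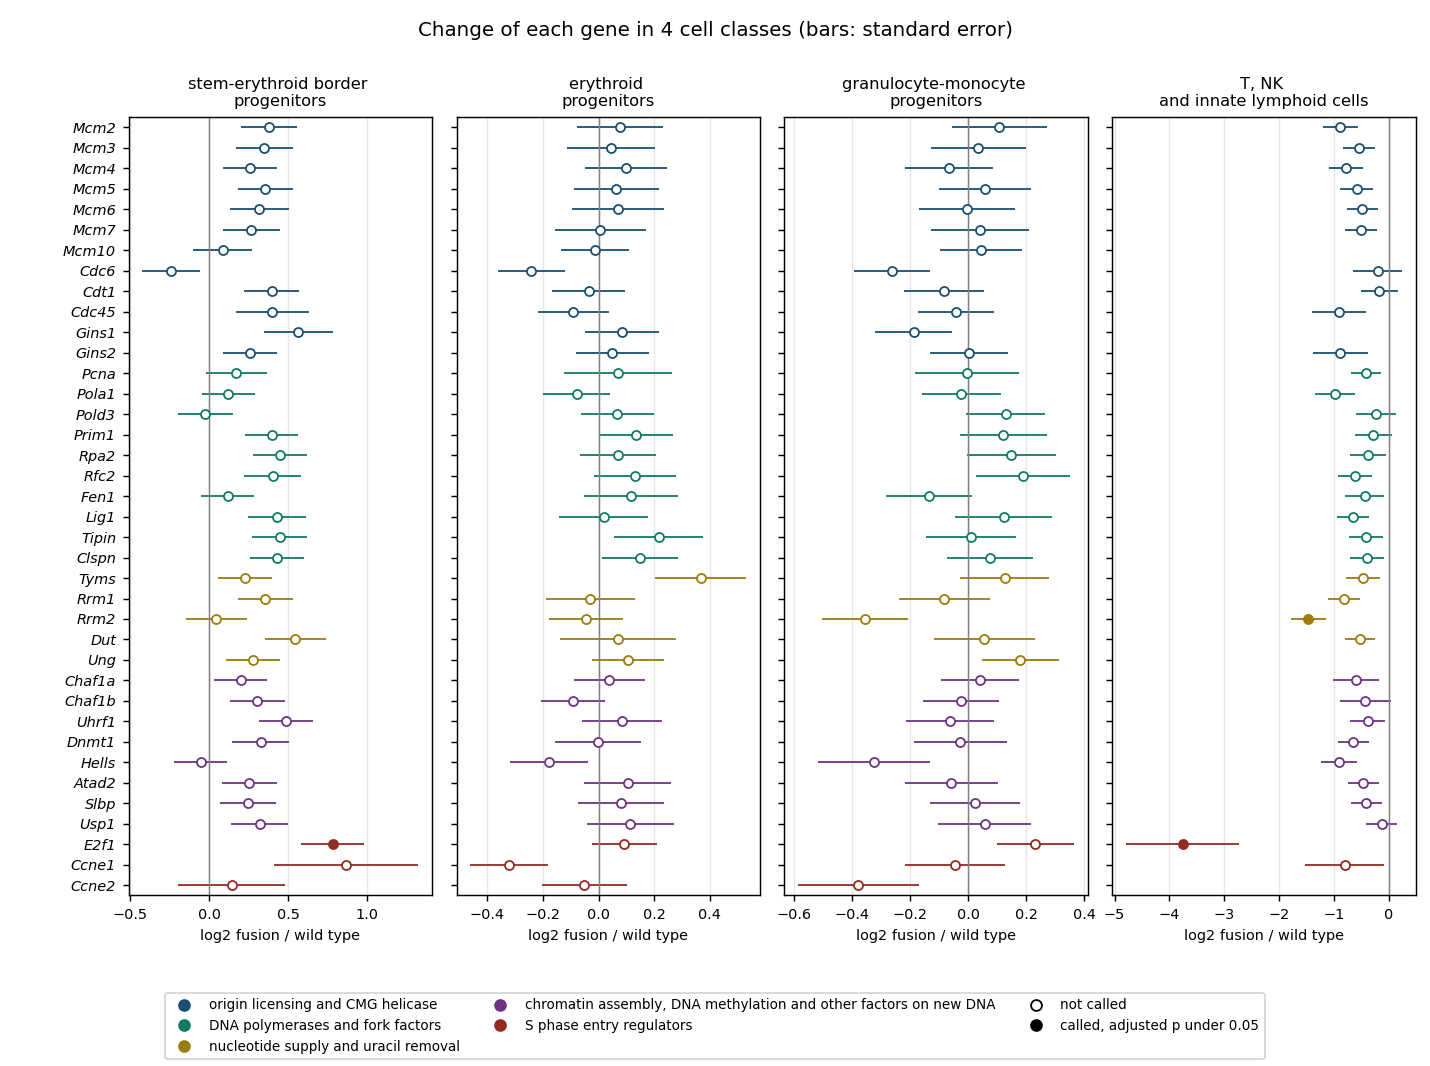
Log2 fold change of fusion over wild type (horizontal axis, scale differing between panels) with its standard error for each of the 38 genes in 4 cell classes, coloured by role, with filled points for called genes. In the stem-erythroid border progenitors 35 of 38 genes lie above 0, in T, NK and innate lymphoid cells all 34 tested lie below 0, and in the other 2 classes the genes scatter around 0.

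Erythroid progenitors, the largest source of the set's transcripts, held 0 called members of 38, where 0.822% of all genes were called. Their median member log2 fold change was 0.07, with 26 of 38 positive, and 2 members had an unadjusted p under 0.05 (8.34% of all genes). Tyms stood at 171 and 145 CPM in fusion and 123 CPM in wild-type cells (0.37 ± 0.16, edgeR adjusted p = 0.597). Ccne1 stood at 73.2 and 61.9 CPM against 84.5 CPM (−0.32 ± 0.14, adjusted p = 0.569), and Cdc6 at 67.5 and 65.8 CPM against 78.8 CPM (−0.24 ± 0.12, adjusted p = 0.669). The summed level in this class depended on the replicate, with a log2 ratio of −0.01 without fusion replicate 1 and 0.17 without fusion replicate 2. In erythroblasts 27 of 38 members were negative (median −0.10 on TMM scaling and −0.05 on plain CPM). Of these 38, 0 were called (2.25% of all genes) and 3 were at an unadjusted p under 0.05 (11.4% of all genes). Hells stood at 82.1 and 103 CPM in fusion against 138 CPM in wild type (−0.56 ± 0.18, adjusted p = 0.0655). Ccne2, which encodes cyclin E2, stood at 62.3 and 85.8 CPM against 106 CPM, and Cdc6 at 160 and 176 CPM against 229 CPM, with no call for either. Erythroblast markers stood at 12458 and 11265 CPM in fusion erythroblasts against 18155 CPM in wild type (10 of 12 lower in both fusion libraries), and immature neutrophil markers at 623 and 472 CPM against 3506 CPM (12 of 13 lower). Their part in these differences was not tested.

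Megakaryocytes leaned upward and the granulocyte-monocyte progenitors stayed near 0. In megakaryocytes 31 of 38 members were positive, with a median of 0.16. None was called (0 of 38, and 0.265% of all genes), and 6 were at an unadjusted p under 0.05, all higher (7.32% of all genes). Cdc45, the helicase activator, stood at 28.9 and 47.0 CPM in fusion megakaryocytes and 21.4 CPM in wild type (0.85 ± 0.36, edgeR adjusted p = 0.671). Rrm2 stood at 44.6 and 51.3 CPM against 26.7 CPM (0.85 ± 0.27, adjusted p = 0.468), and Fen1, the flap nuclease that trims lagging strand fragments, at 92.2 and 68.8 CPM against 49.7 CPM (0.68 ± 0.24, adjusted p = 0.547). Both fusion libraries lay above wild type for each of the 3. The wild-type library held 60 megakaryocytes. Their 33 genes of G2 and M phase, outside the set, were all positive as well, with a median log2 fold change of 0.49, and their part in the lean was not tested. In granulocyte-monocyte progenitors the median was 0.01, with 20 of 38 positive and 0 called (0.681% of all genes). At an unadjusted p under 0.05 there was 1 (8.35% of all genes). Rrm2 stood there at 79.9 and 89.1 CPM in fusion against 108 CPM in wild type, Hells at 115 and 156 CPM against 170 CPM and Ccne2 at 17.9 and 27.2 CPM against 29.6 CPM, with no call.

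The set was lower in T cells, NK cells and innate lymphoid cells, with 2 called members. Its summed level was 2604 and 2041 CPM in fusion and 3226 CPM in wild type, a log2 ratio of −0.47. That ratio was −0.22 with doublets kept (−0.08 without fusion replicate 2) and −0.28 with cells named cell by cell. All 34 members tested had a negative log2 fold change, with a median of −0.51 beside 0.01 over all 7157 genes. At an unadjusted p under 0.05 there were 10, where 9.19% of all genes passed. Rrm2 fell to 47.6 and 40.7 CPM in fusion, against 122 CPM in wild-type cells (−1.47 ± 0.32 on the log2 scale, edgeR adjusted p = 0.000507). The underlying counts were 22 and 19 UMIs in fusion and 173 in wild type. E2f1 fell as well, with 0 and 2 UMIs in fusion and 44 in wild type. The ratio of plain CPM was 0.0731 with an exact 95% counting interval of 0.0086 to 0.280, and the adjusted p was 0.0151. The 2 calls among 34 members stand beside 1.76% of all genes called in this class and 1.17% called lower. Both calls were lost with no count filter (adjusted p = 0.767 for each) and with DESeq2 (0.9999 for each).

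The lymphoid class was small, with 114 and 90 cells in fusion and 253 in wild type, and other cell markers moved with it. The summed immature neutrophil markers stood at 2380 and 1364 CPM in fusion against 5296 CPM in wild type, with 9 of 13 lower in both fusion libraries. The plasma cell markers stood at 88.0 and 92.1 CPM against 850.3 CPM, with 3 of 7 lower in both. The pro-B markers stood at 653 and 412 CPM against 254 CPM, although only 3 of 13 were higher in both fusion libraries and 7 were lower in both. Markers of T, NK and innate lymphoid cells themselves stood at 9789 and 10481 CPM against 7998 CPM. Their part in the result was not tested.

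Cdc45 fell in basophils. It stood at 22.1 and 20.1 CPM in fusion and 38.9 CPM in wild type, a log2 fold change of −0.89 ± 0.23 (SE, edgeR adjusted p = 0.0356). Both fusion libraries lay below wild type, and Cdc45 was the 1 member called of 38, where 5.79% of all genes were called and 4.36% were called lower. The call was lost at coarser clusters (adjusted p = 0.12), with thinned cells (0.701) and with DESeq2 (0.9998). The class joined a cluster led by Prss34 and Mcpt8, which held 59.1% and 58.8% of fusion basophils and 91.0% of wild-type ones, with a cluster led by Gzmb and Scin. In the first cluster Cdc45 stood at 23.6 and 22.3 CPM in fusion against 39.3 CPM in wild type, and in the second at 22.8 and 17.6 CPM against 20.8 CPM. The second cluster held only 17 and 20 Cdc45 UMIs in fusion and 11 in wild type, and a difference between the clusters was not tested. The 33 G2 and M phase genes were all negative in basophils, with a median log2 fold change of −0.63 and 10 called lower. Basophil markers stood at 29023 and 33169 CPM in fusion against 59870 CPM in wild type, with 11 of 12 lower in both fusion libraries, and stem cell markers at 4552 and 4238 CPM against 2612 CPM. Their part in the result was not tested. The median member in basophils was at −0.02 on TMM scaling and 0.10 on plain CPM. Cdc45 lies on chromosome 16, 18780447 to 18811987 (GRCm38).

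The remaining classes held no called member. In pro-B cells 32 of 38 members were negative, with a median of −0.22 and 0 called (0.816% of all genes). At an unadjusted p under 0.05 there were 2 (7.04% of all genes). Mcm6 stood at 121 and 185 CPM in fusion pro-B cells against 247 CPM in wild type (−0.68 ± 0.23, edgeR adjusted p = 0.204). Hells stood at 131 and 163 CPM against 229 CPM, and the histone chaperone gene Chaf1a at 68.6 and 75.0 CPM against 99.8 CPM. In pre-B to mature B cells, Hells stood at 26.2 and 52.4 CPM in fusion against 95.2 CPM in wild type, Rrm2 at 33.3 and 38.1 CPM against 73.8 CPM and Rpa2 at 40.4 and 47.6 CPM against 75.9 CPM. Both fusion libraries lay below wild type for each of these genes, in a class where edgeR called 0 of 6524 genes (0.0%), 225 had an unadjusted p under 0.05 and DESeq2 called 3. Of the 36 members tested there, 3 had an unadjusted p under 0.05. The markers of pre-B to mature B cells stood at 25209 and 49817 CPM in fusion against 81506 CPM in wild type (7 of 13 lower in both fusion libraries), those of plasma cells at 315 and 2124 CPM against 6694 CPM (7 of 7 lower) and those of lymphoid progenitors at 5436 and 8382 CPM against 20694 CPM (6 of 11 lower). Their part in these differences was not tested.

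In several classes the lean of the set depended on the scaling. Plain CPM lay above TMM scaling by 0.18 in shared neutrophil precursors, 0.19 in mature neutrophils, 0.15 in pre-B to mature B cells and 0.11 in basophils, as log2 fold changes, and by less than 0.1 in the other classes compared. The Irf8 Runx2 progenitors kept their direction, with 30 of 38 members negative and a median of −0.14 on TMM scaling and −0.09 on plain CPM. In them 0 were called (0.314% of all genes) and 3 were at an unadjusted p under 0.05 (7.57% of all genes). Hells stood at 108 and 118 CPM in fusion against 172 CPM in wild type (−0.60 ± 0.18, edgeR adjusted p = 0.351), Ccne2 at 19.3 and 29.7 CPM against 35.5 CPM and Chaf1b at 32.4 and 36.7 CPM against 46.7 CPM. In the shared neutrophil precursors, the immature neutrophil clusters that all 3 libraries filled, 31 of 38 were negative with a median of −0.09 on TMM scaling, but 22 were positive with a median of 0.09 on plain CPM. There 0 were called (0.704% of all genes) and 1 was at an unadjusted p under 0.05 (11.1% of all genes). Pcna, the sliding clamp, stood there at 167 and 171 CPM in fusion against 224 CPM in wild type, Ccne2 at 34.9 and 48.2 CPM against 53.6 CPM and the polymerase alpha gene Pola1 at 25.8 and 31.0 CPM against 36.4 CPM. In monocytes and dendritic cells the median was 0.01, with 0 called (2.98% of all genes) and 0 at an unadjusted p under 0.05 (10.5%). Rrm2 stood there at 94.5 and 118 CPM in fusion against 142 CPM in wild type, Gins1 at 18.8 and 20.4 CPM against 27.1 CPM and E2f1 at 26.2 and 31.8 CPM against 21.7 CPM.

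Stem, multipotent and lymphoid progenitors had a median of 0.03, with 0 members called (3.53% of all genes) and 1 at an unadjusted p under 0.05 (12.2%). They held Rfc2 at 203 and 191 CPM in fusion against 156 CPM in wild type, Rrm2 at 30.4 and 30.2 CPM against 36.3 CPM and Hells at 77.0 and 113 CPM against 109.9 CPM. Their lymphoid progenitor markers stood at 2222 and 2135 CPM in fusion against 4164 CPM in wild type (11 of 11 lower in both fusion libraries). Erythroid progenitor markers stood at 923 and 862 CPM against 405 CPM (13 of 14 higher in both). Of 33 G2 and M phase genes 2 were positive there, with a median of −0.22. The part of these differences in the values of the set was not tested. Mature neutrophils had a median of −0.08 on TMM scaling and 0.11 on plain CPM, with 0 called (6.02% of all genes). In this class different clusters held the genotypes: a pair of clusters held 1174 and 903 and 260 and 168 fusion cells with 0 wild-type cells, and a further cluster 9 and 14 fusion cells against 1424 wild-type cells. Of the 38 members, 17 were lower than wild type in both fusion libraries and 12 higher in both, where 35.7% and 38.1% of all genes were. At an unadjusted p under 0.05 there were 5, where 17.6% of all genes passed. Of these 5 members, Hells, Mcm3, Mcm6 and Rrm2 were lower and Usp1 higher. By size among the more abundant members, Usp1 stood at 56.6 and 43.5 CPM in fusion against 31.9 CPM in wild type, Rfc2 at 79.5 and 70.0 CPM against 60.4 CPM and the histone messenger binding gene Slbp at 65.2 and 65.8 CPM against 55.4 CPM.

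Some members kept a side across the 14 classes, although these share their libraries, so that their counts cannot be read as repeats. Both fusion libraries lay below wild type for Rrm2 in 11 of 14 classes and for Ccne1 in 10. They did so for Hells, Dnmt1 and Uhrf1 in 9 each, and for Ccne2 in 9 of 12. Both lay above wild type for Tyms in 10 of 14 classes, for Usp1 and Rfc2 in 9 each and for Ung in 9 of 13. By class, 31.4% to 38.1% of all genes lay above wild type in both fusion libraries, and 31.1% to 37.3% lay below. How many of all genes kept a side in as many classes was not counted. The median log2 fold change over classes was −0.27 for Hells, −0.29 for Rrm2, 0.19 for Tyms and 0.13 for Rfc2.

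Whether the change of a member differed between classes was tested for 3 pairs of classes, with the library as a block. Pcna differed between shared neutrophil precursors and granulocyte-monocyte progenitors, with log2 fold changes of −0.40 and −0.0044 and a difference of −0.40 ± 0.10 (SE, edgeR adjusted p = 0.00467). Lig1, which seals lagging strand fragments, had log2 fold changes of −0.24 and 0.12 in the same pair, a difference of −0.37 ± 0.11 (adjusted p = 0.0409). These were 2 of 38 members, where 3.68% of all genes were called, 1.39% with a lower difference. As log2 fold changes, plain CPM lay above TMM scaling by 0.18 in the precursors and by 0.06 in the progenitors. The differences of Pcna and Lig1 were not recomputed on plain CPM. Rrm2 differed between megakaryocytes and erythroid progenitors, with log2 fold changes of 0.85 and −0.04 and a difference of 0.92 ± 0.27 (adjusted p = 0.0483). It was 1 of 38 members, where 1.30% of all genes were called. Between erythroid progenitors and granulocyte-monocyte progenitors edgeR called 0 members, where 2.87% of all genes were called, and 5 were at an unadjusted p under 0.05. DESeq2 called 0 members in any pair, and the Rrm2 call was lost in every alternative run.

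The share of cells in an S phase range was then counted per cell. Each cell was thinned to 2000 UMIs, and a cell counted as in range with more than 6 UMIs of the 38 genes, a cut set at the top 1% of mature neutrophils, which serve as the background. Thinning left out 998 and 395 fusion cells and 654 wild-type cells with fewer UMIs. Over all cells, 45.5% and 44.2% of fusion cells were in range and 38.8% of wild-type cells, and the exact 95% intervals by the Clopper-Pearson method ran from 44.2 to 46.7% and 43.0 to 45.4% in fusion, against 37.7 to 39.99% in wild type. These intervals cover counting error only. The values over all cells also reflect the mix of classes. Erythroid progenitors were 21.9% and 21.4% of fusion cells against 9.29% of wild-type cells. The count was not repeated at wild-type class shares. In mature neutrophils the shares in range were 0.57% and 0.596% in fusion and 0.573% in wild type, at median depths of 2582 and 2864 UMIs against 3138 UMIs. All erythroblasts of each library were in range. The range thus marks transcripts of the set above the neutrophil background and is no measure of the cells in S phase itself.

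Among the classes, only the border progenitors had intervals of both fusion libraries on 1 side of the wild-type interval. There 336 of 563 cells of fusion replicate 1 were in range (59.7%, interval 55.5 to 63.8%) and 323 of 586 cells of fusion replicate 2 (55.1%, interval 51.0 to 59.2%), against 120 of 305 wild-type cells (39.3%, interval 33.8 to 45.1%). The 3 libraries had similar depth in this class, with medians of 10153 and 10908 UMIs in fusion against 9608 UMIs in wild type. Within 1 UMI of the cut lay 14.9% and 15.4% of fusion cells and 13.1% of wild-type cells. With the cut raised by 2 UMIs the intervals met, at shares 11.6 percentage points apart. The share of these cells in a G2/M range, counted from the list of G2 and M phase genes, was 18.7% and 18.3% in fusion and 16.1% in wild type.

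Other classes did not separate in this count. Erythroid progenitors were in range at 86.8% and 78.3% in fusion and 80.4% in wild type, so the fusion replicates differed more from each other than their mean did from wild type. In megakaryocytes the shares were 73.3% and 67.0% against 58.5%, and in granulocyte-monocyte progenitors 78.4% and 75.0% against 76.3%. In T, NK and innate lymphoid cells they were 12.2% and 12.6% in fusion against 24.0% in wild type, with intervals of 6.49 to 20.4% and 6.48 to 21.5% against 18.7 to 30.05%. In pro-B cells they were 33.9% and 41.1% against 40.8%. Both fusion shares thus lay below wild type in the T, NK and innate class and above it in megakaryocytes. The intervals cover counting error within a library only, so their overlap does not show that the genotypes are alike. A difference between the genotypes was not tested in these classes.

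**Figure D3:**
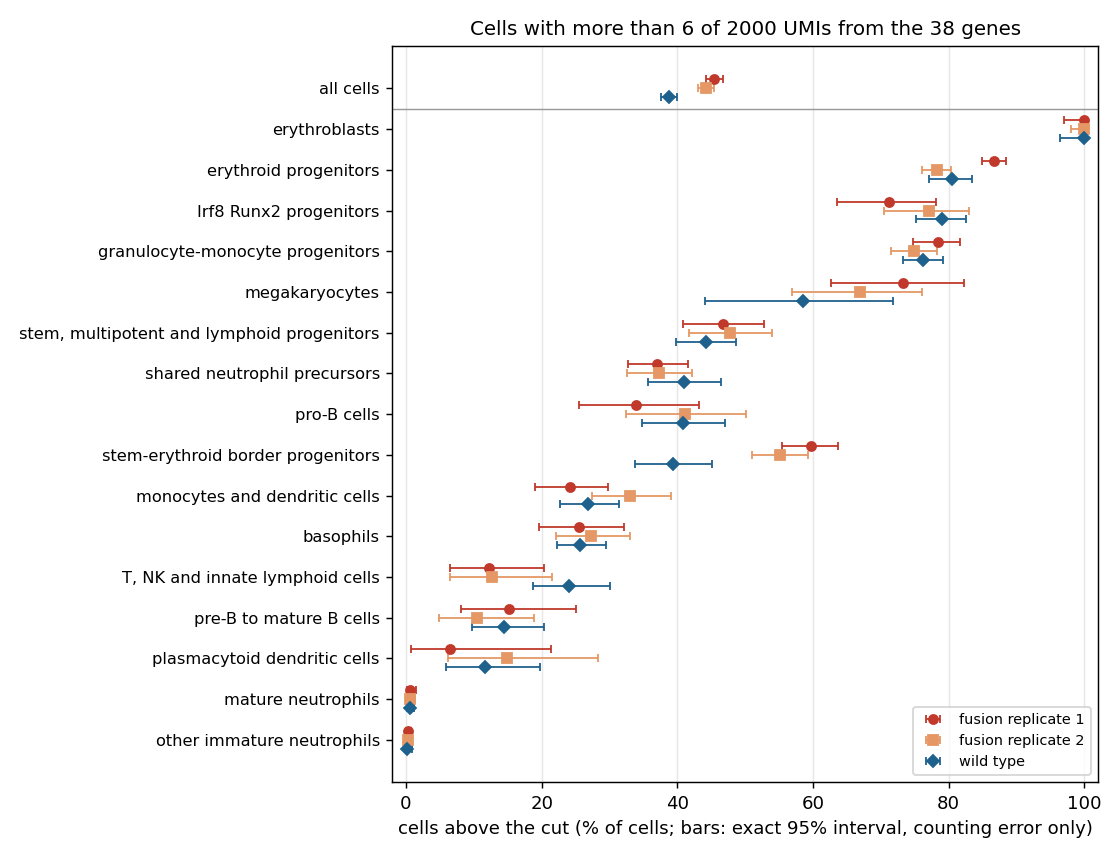
Share of cells with more than 6 of 2000 thinned UMIs from the 38 genes (horizontal axis, percent of cells) in all cells and 16 classes, with exact 95% intervals for fusion replicate 1, fusion replicate 2 and wild type. The border progenitors lie at 59.7% and 55.1% in fusion against 39.3% in wild type, and mature neutrophils lie below 1% in each library.

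The 38 genes differed in level between cells inside and outside the G2/M range. This range uses none of the 38 genes and was likewise cut at the top 1% of mature neutrophils. The level of each member inside the range was divided by its level in the other cells of the class. Inside it lay 930 and 824 fusion and 364 wild-type erythroid progenitors, with 587, 615 and 285 outside. A ratio thus compares cells above and below a background level and does not place a gene in a stage of the cycle. Of the 38 genes, 26 had a ratio below 1 in all 3 libraries in erythroid progenitors and 5 a ratio above 1, and in granulocyte-monocyte progenitors the counts were 27 and 3. Cdt1, Chaf1b, E2f1, Gins2, Mcm2, Mcm4, Mcm5, Mcm6 and Ung were below 1 in every library of the 3 classes examined. Rrm1, the large subunit of ribonucleotide reductase, and Tyms were above 1 in every one of them. Ung had the lowest ratio, at 0.294 and 0.311 in fusion erythroid progenitors and 0.288 in wild type.

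The ratios of the border progenitors differed from those of the other 2 classes. There 9 genes were below 1 in all libraries and 16 above, and the median ratio was 1.01 and 1.10 in fusion and 1.16 in wild type, against 0.871 and 0.905 in fusion erythroid progenitors and 0.863 in wild type. Rrm2 had ratios of 2.01 and 3.03 in fusion border progenitors and 2.38 in wild type, and Mcm10, which helps to start unwinding, 2.38 and 1.91 against 2.45. In cells outside the G2/M range, E2f1 stood at 46.1 and 39.6 CPM in fusion border progenitors and 22.04 CPM in wild type, and inside it at 20.2 and 27.9 CPM against 20.4 CPM. Outside the range both fusion libraries thus lay above wild type for E2f1, while inside it fusion replicate 2 lay above and fusion replicate 1 just below. These values rest on 105 and 107 fusion cells and 49 wild-type cells inside the range and 458, 479 and 256 outside it, described without a test. A smaller part of the border cells than of the other 2 classes lay inside the range, and its part in the ratios was not tested.

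**Figure D4:**
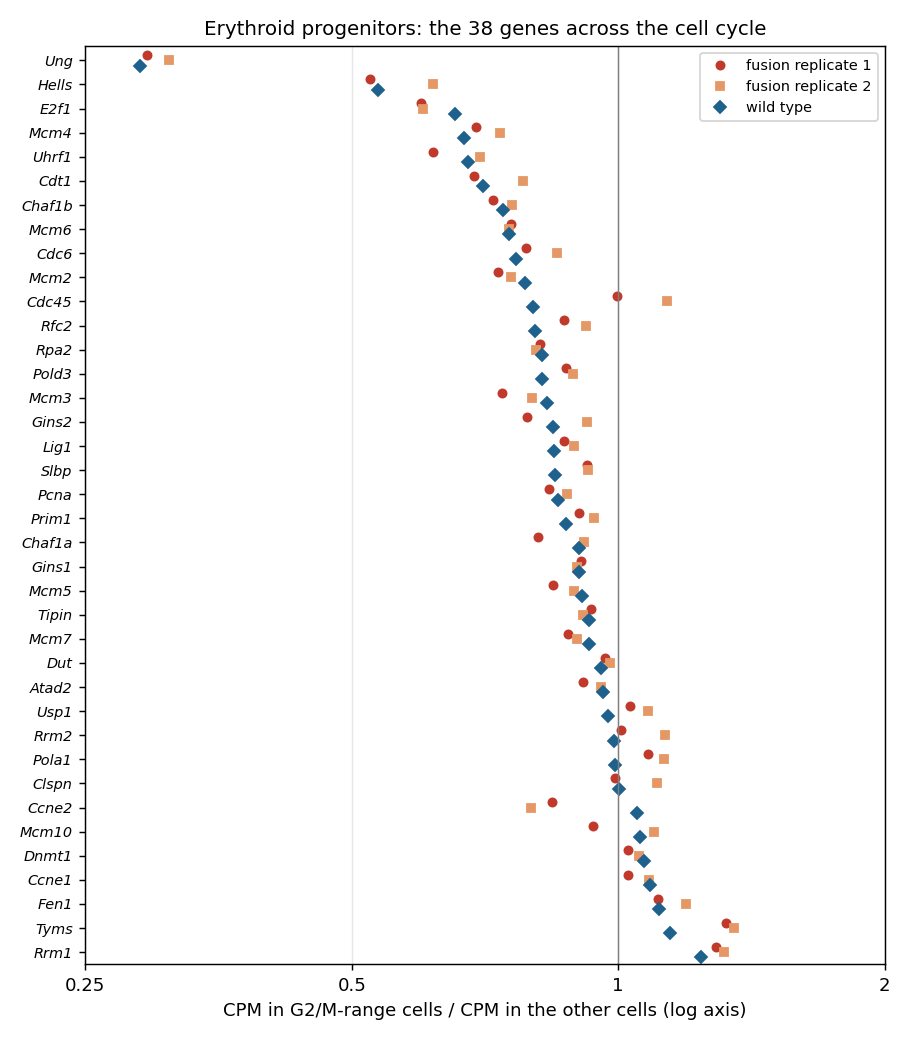
Level of each of the 38 genes in erythroid progenitors inside the G2/M range divided by its level in the other erythroid progenitors (horizontal log axis), with 1 point per library. Ung lies lowest at 0.294, 0.311 and 0.288 in fusion replicate 1, fusion replicate 2 and wild type, and Rrm1 and Tyms lie above 1 in each library.

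Other genes of the cell cycle, from 8 lists, were read in the same tests over the 14 classes, where 1.93% of pairs over all genes were called. Of 39 other genes of the replication machinery, 1 of 514 pairs of gene and class was called: Dbf4, which activates the licensing kinase, was lower in basophils (34.4 and 39.0 CPM in fusion against 59.96 CPM in wild type). Of 13 other nucleotide supply genes 1 of 179 pairs was called, the deoxycytidine kinase gene Dck, lower in mature neutrophils (98.9 and 98.2 CPM against 195 CPM), where the genotypes filled different clusters. Of 13 other S phase chromatin genes edgeR called 0 of 178 pairs and DESeq2 0, and 12 had an unadjusted p under 0.05. Of 23 genes of replication stress and fork repair edgeR called 0 of 302 pairs and DESeq2 0, and 16 had an unadjusted p under 0.05.

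Regulators outside the set moved in few classes. Of 12 other S phase entry regulators, 2 of 160 pairs were higher and 2 lower. E2f2 was higher in erythroid progenitors and Tfdp2, a partner of E2F factors, in basophils (56.5 and 48.4 CPM in fusion against 31.2 CPM in wild type). The cyclin A gene Ccna2 was lower in basophils (44.2 and 43.3 CPM against 73.7 CPM), and Myc was lower in lymphoid cells of the T, NK and innate class (21.6 and 23.6 CPM against 70.0 CPM). Of 14 brakes on S phase entry, 1 of 182 pairs was higher and 3 were lower. The inhibitor gene Cdkn2c was higher in the border progenitors. Btg1 (265 and 318 CPM in fusion against 570.0 CPM in wild type) and Cdkn2d (76.1 and 81.5 CPM against 131 CPM) were lower in basophils, and Cdkn1a, the p53 target that blocks cyclin kinases, in the shared neutrophil precursors. Of 12 p53 targets, 2 of 121 pairs were called, both lower: that of Cdkn1a and Trp53inp1 in stem, multipotent and lymphoid progenitors (21.3 and 17.6 CPM against 39.6 CPM). E2f2, Cdkn2c and Cdkn1a are named because the counts are small, after their values were seen.

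Of 33 genes of G2 and M phase, 11 of 461 pairs were lower and 1 higher (2.6% called), and DESeq2 called 1. The lower calls were 10 in basophils, where Tacc3 stood at 34.99 and 31.7 CPM in fusion against 60.8 CPM in wild type, and Aurkb in the T, NK and innate class (19.5 and 27.9 CPM against 65.1 CPM). The 1 higher call was Kif23 in mature neutrophils (152 and 120 CPM against 54.4 CPM), where the genotypes filled different clusters. With the other immature neutrophils included, 30 of 494 pairs were lower and 1 higher (6.28%), beside 2.11% of pairs over all genes. In that class 19 of the 33 genes were called lower, with a median log2 fold change of −1.16. There too fusion and wild-type cells filled different clusters. Over all cells, Cad, which starts pyrimidine synthesis, was higher (76.7 and 69.2 CPM in fusion against 49.97 CPM in wild type), as was the histone chaperone gene Asf1a (104 and 89.6 CPM against 69.4 CPM), and Btg1 was lower (132 and 150.0 CPM against 227 CPM). In the border progenitors, the other replication machinery had a median log2 fold change of 0.17, other nucleotide supply 0.23 and other S phase chromatin 0.20, while G2 and M phase genes had 0.08.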

How the data were processed

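Single-cell RNA was counted in 3 bone marrow libraries. The deposited matrices hold unnormalized counts of UMIs. Per the submitters' processing notes, reads went through bcl2fastq (2.20.0.422) and then Cell Ranger (5.0.1) against GRCm38, and per the file headers the version was 5.0.0. Kept barcodes had 1000 UMIs or more, 400 genes or more and no more than 10% mitochondrial UMIs, and 225 and 318 fusion and 194 wild-type predicted doublets were removed with scrublet in scanpy 1.11.5 (expected rate 0.06). Cells were clustered together on 2000 variable genes, 30 components and 15 neighbours (leidenalg 0.10.2, resolution 1) without 196 cell cycle genes, the 38 members included. Clusters took the name of the best-scoring marker list, so a class name means cells resembling that type. The rules for clusters that scored alike or split by genotype were chosen after seeing the clusters, as were 2 alternatives. Because 1 immature neutrophil cluster had more mature than immature markers among its leading genes, the 2 clusters filled by all libraries stand for that class, and the other immature neutrophils, tested with the rest, are left out of comparisons by name.

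UMI counts were summed per class and library and tested with edgeR 4.0.16 (quasi-likelihood, TMM, filterByExpr, 1 residual degree of freedom), with the Benjamini-Hochberg threshold at 0.05. The wild-type library was thereby assumed to vary like the fusion libraries. The scripts were tested on simulated data. DESeq2 1.42.0 and other alternatives are given below. Members by role were named where called. In a class with no call, the 3 largest changes at a mean of at least 20 CPM were given. List genes were the first 3 called by size. The members, the lists and the tests were chosen with earlier results of these data known. The labels do not say whether libraries came from separate animals. Plasmacytoid dendritic cells (31 and 47 fusion cells) were not tested.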

Additional observations from a re-analysis of the deposited data

Results flagged for a closer look

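In 3 results, the change of a member differed between cell classes by the test of the difference itself. The difference of Pcna between shared neutrophil precursors and granulocyte-monocyte progenitors was −0.40 on the log2 scale (edgeR adjusted p = 0.00467), where Pcna was lower in both fusion libraries in the precursors and overlapped in the progenitors. The adjusted p was between 0.000341 and 0.0188 with DESeq2 size factors, without the count filter and at Leiden resolutions 0.5 and 2, but 0.0657 when clustered with cell cycle genes and 0.779 with DESeq2. The difference of Lig1 in the same pair was −0.37 (adjusted p = 0.0409), with adjusted p from 0.0203 to 0.9999 over its alternatives. The difference of Rrm2 between megakaryocytes and erythroid progenitors was 0.92 (adjusted p = 0.0483), with adjusted p from 0.051 to 1 over its alternatives, so every alternative run lost that call. All 3 kept their direction in every alternative run. Each compares classes of the same libraries, and each rests on 1 wild-type library. None was recomputed on plain CPM, which shifts the fold changes of the precursors more than those of the granulocyte-monocyte progenitors.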

How the results depend on the processing

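Calls of members depended on the setting. The 4 pairs of class and member became 2 without the count filter, 0 with DESeq2, 2 at Leiden resolution 0.5 and 2 with cells thinned to 2000 UMIs, and lay between 3 and 6 elsewhere, at 4 without the other immature neutrophils (chosen after seeing the data). The 3 members differing between classes became 1 without the filter, 0 with DESeq2, 0 when clustered with cell cycle genes and 1 at resolution 0.5. E2f1 in the border progenitors had adjusted p from 0.0157 (no filter) to 1.0 (DESeq2), Cdc45 in basophils from 0.0043 to 0.9998, Rrm2 in T, NK and innate lymphoid cells from 0.000466 to 0.9999 and E2f1 there from 0.0127 to 0.9999, with 1 direction in each. Over all cells, 0 members were called in every alternative run. The border class formed only at resolutions 1 and 0.5. Its module log2 ratio lay between 0.32 and 0.36 over its alternatives, with 0.29 and 0.40 when a fusion replicate was left out. The ratio over all cells lay between 0.10 and 0.22 and that of erythroid progenitors between −0.01 and 0.17 when a fusion replicate was left out. At wild-type class shares it lay between −0.01 and 0.10. Over all cells, with class shares not held equal, the share in the S phase range was 6.02 percentage points higher in fusion. It was 4.90 higher with the cut raised by 2 UMIs and 5.39 to 6.66 higher with a fusion replicate left out. In border progenitors the 18.1 points became 11.6 with the raised cut and 15.8 to 20.3 without a replicate. In erythroid progenitors the 2.10 points became 8.11 when clustered with cell cycle genes and 8.27 with the stricter cell filter, and −2.11 to 6.32 without a replicate; the cause was not tested. Leaving out a fusion replicate leaves no residual degree of freedom, so these are values with no test. Fusion libraries could not be paired with wild-type libraries, because wild type was a single library. Classes of the same library were paired only in the test of differences between classes.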
